A study of Tupaia belangeri with 6 samples.

Results

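The genes described here are the well expressed ZNF zinc finger genes of the tree shrew prefrontal cortex (PFC). A gene belonged to the group if its name was ZNF followed by a number and at most one letter, without the "li" suffix that the gene annotation puts on similar copies, and if its level was at least 5 TPM in all 6 libraries. TPM (transcripts per 1e6) is a level scaled for transcript length and for the total of each library. The rule took 106 of the 211 ZNF names in the tables, out of 95863 loci in all. Because measured levels chose the members, the levels themselves are given as a description, with no test.

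RNA was sequenced from the PFC of adult Chinese tree shrews (Tupaia belangeri), with 1 library per animal and no treatment. The groups were 3 females (numbered 1, 3 and 4) and 3 males (numbered 1, 4 and 5). All animals were described as adult, and in the sample sheet of the study every male was older than every female, so sex and age cannot be told apart. The tables held assembled gene levels on the TS_3.0 genome, and they give no read counts, so the depth behind a single value cannot be read from them. The summary of the RNA-seq data in the study lists read totals of similar size for all libraries.

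Most ZNF proteins carry runs of C2H2 zinc fingers, each a small loop folded around a zinc ion, and a row of fingers reads a stretch of DNA. Many begin with a KRAB domain, which binds the co-repressor TRIM28 and through it histone methyltransferases and deacetylases, and this arrangement silences transposable elements in the germ line, the early embryo and the brain. KRAB zinc finger genes arose by repeated tandem duplication and sit in clusters, whereas older ZNF genes without KRAB include transcription activators, partners of chromatin complexes and RNA-binding proteins.

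The cell-type content of the libraries was described with marker genes. No other brain region was there to compare, so these levels cannot check the cortical origin. The summed level of 6 listed neuronal markers ranged over the females from 6124 to 7867 TPM and over the males from 5870 to 7134 TPM. Oligodendrocyte markers summed to 348 to 482 TPM (females) against 80.7 to 236 TPM (males), and blood markers to 1275 to 2542 TPM (females) against 62.7 to 101 TPM (males). Loci without an assigned strand took 2.30% to 3.33% of TPM in the females and in male 4 took 2.67%, but took 5.16% in male 1 and 7.88% in male 5. In bulk tissue, fewer cells of a type and less RNA per cell cannot be told apart. The members together made up 0.341% to 0.411% of the TPM of a library, and 121 to 145 ZNF genes per library reached 5 TPM.

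Mean levels of the members ran from 6.54 TPM for ZNF23 to 480 TPM for ZNF581, with a median of 19.3 TPM. The median over the 6962 named genes that met the same minimum was 35.1 TPM. By mean level, 16 members lay between 5 and 10 TPM, 38 between 10 and 20, 39 between 20 and 50, 8 between 50 and 100, and 5 above 100 TPM. The 3 highest members held 28.0% of the summed level of the group and the 10 highest held 44.4%. Of the 105 ZNF genes that did not meet the minimum, 14 were listed at 0 in every library.

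**Figure D1:**
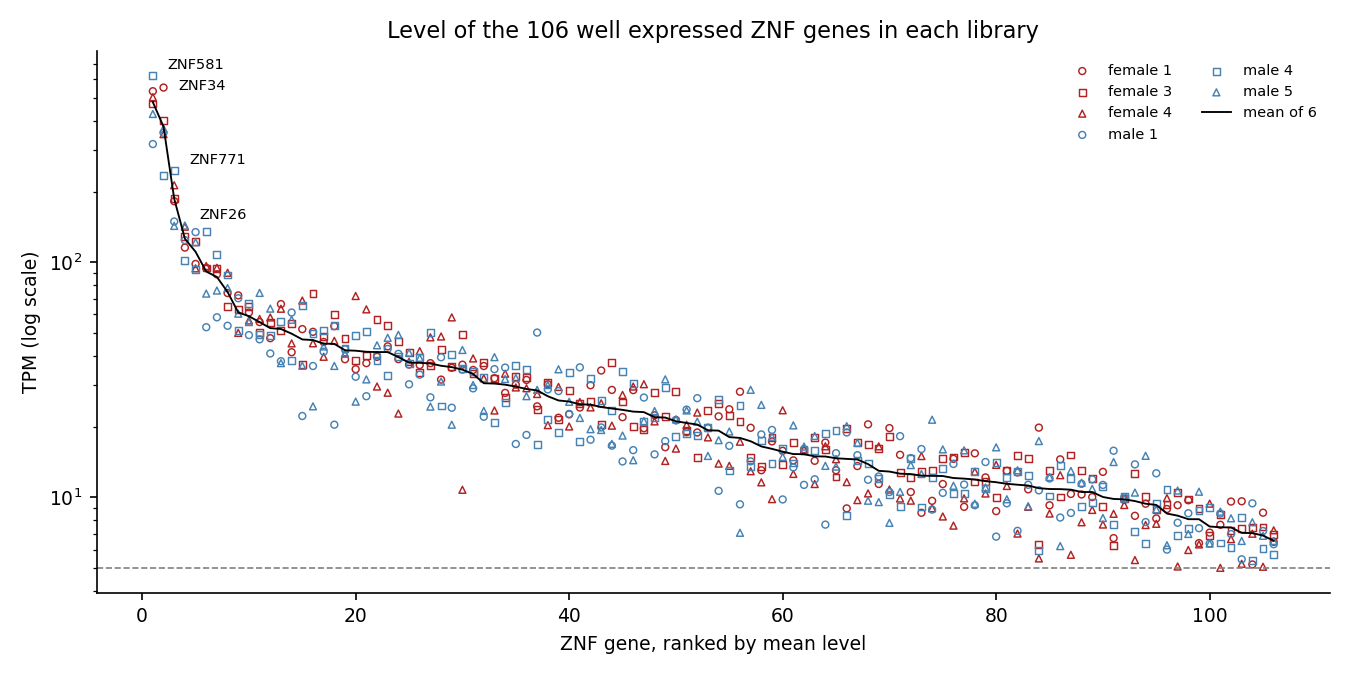
Level of each of the 106 members in each of the 6 libraries (TPM, log axis), with members ranked by mean level, red symbols for females, blue symbols for males, a black line for the mean of the 6 libraries and a dashed line at the minimum of 5 TPM. ZNF581 and ZNF34 stand above the other members, and the spread over libraries of a single member is wide against the step from one rank to the next.

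The highest member was ZNF581, a zinc finger gene on the unplaced contig1909 from 1949 to 67468. Its level was 534, 471 and 504 TPM in females 1, 3 and 4, and 318, 624 and 428 TPM in males 1, 4 and 5. Male 4 was the highest library and male 1 the lowest, so the sexes overlapped. ZNF34, a KRAB gene on chromosome 13 from 149417 to 213465, had 554, 400 and 351 TPM in the females and 355, 234 and 370 TPM in the males. Its highest library was female 1, and its lowest was male 4, the library in which ZNF581 was highest.

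ZNF771, on chromosome 2 from 59049663 to 59063765, followed with 182, 187 and 213 TPM in the females and 149, 245 and 143 TPM in the males. ZNF26, a KRAB gene on chromosome 22, averaged 126 ± 15.8 TPM (SD, n = 6). ZNF207, which encodes a kinetochore and spindle protein rather than a classical repressor, averaged 111 ± 17.6 TPM (SD, n = 6). The neighbours in this order overlapped: the 6 libraries of ZNF26 covered 102 to 143 TPM and those of ZNF207 93.5 to 134 TPM.

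ZNF385A, whose protein binds mRNA, had 94.7, 94.6 and 96.4 TPM in the females and 53.0, 136 and 73.6 TPM in the males. ZNF512B, a partner of the NuRD deacetylase complex, had 88.9, 94.2 and 94.8 TPM in the females and 58.4, 108 and 75.8 TPM in the males. In both genes the females lay close together, whereas male 4 was the highest and male 1 the lowest of the 6 libraries. The top 10 were completed by ZNF513, a regulator of photoreceptor genes, at 74.8 TPM, by ZNF37A at 61.2 TPM and by ZNF213 at 59.0 TPM on average.

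Neighbouring transcription limits how a single value can be read. Of the 106 members, 64 overlapped another named gene and 59 of them overlapped one on the other strand. The methods of the study name no step that marks strand, so reads of such a pair may not be told apart. In 21 cases the strongest overlapping gene had the higher mean level, such as SYNGR3 at 178 TPM over ZNF598 or VPS9D1 at 192 TPM over ZNF276. ZNF784, at 7.52 TPM, overlapped ZNF581 itself. The RefSeq gene table of another assembly (TupChi_1.0) placed ZNF34 next to RPL8 and ZNF250, and ZNF581 next to ZNF580 and CCDC106, and none of those 4 names had a locus in these tables. The same held for at least 1 neighbour of 36 of 74 members with a named neighbour (48.6%) and of 44.4% of the 6316 named genes for which this could be asked, members included. Whether reads of a neighbour were counted in such a member was not tested.

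Members just inside the minimum were ZNF704, with a lowest library of 5.02 TPM, ZNF518A with 5.07, ZNF281 with 5.08, ZNF565 with 5.19 and ZNF470 with 5.22 TPM. Just outside it were ZNF652 with a lowest library of 4.93 TPM, ZNF202 with 4.80, ZNF772 with 4.74, ZNF236 with 4.73 and ZNF641 with 4.63 TPM. ZNF236 had a mean of 7.28 TPM, above the mean of ZNF518A at 6.88 TPM, so the order of means and membership did not coincide at the edge. Female 4 was the lowest library for ZNF704, ZNF518A, ZNF281 and ZNF470 among the members inside, and for ZNF652 and ZNF772 outside.

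Grouped by role, the members fell into KRAB proteins and others. By what is known of the human protein of the same name, 53 members carry a KRAB domain (6 of them with a SCAN domain, a protein-pairing module, as well), 3 carry SCAN without KRAB, 48 carry neither, and 2 were not sorted. The KRAB members had a median level of 15.0 TPM, and those with neither domain a median of 23.4 TPM. The KRAB members summed to 1751, 1648 and 1505 TPM in the females and 1478, 1380 and 1586 TPM in the males, and much of that spread was ZNF34. Without ZNF581 and ZNF34 they summed to 1197, 1247 and 1154 TPM in the females and 1122, 1147 and 1216 TPM in the males. The sexes overlapped in both sums, and without these genes the 6 libraries lay closer together than those of the members with neither domain, which summed to 1572, 1669 and 1598 TPM in the females and 1334, 1695 and 1449 TPM in the males.

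The partners of the KRAB proteins were also read. Of the 24 listed genes of the co-repressor pathway, 14 reached 5 TPM in all libraries. SUMO2, a small modifier used in KRAB repression, averaged 304 ± 19.9 TPM (SD, n = 6), MBD3 of the NuRD complex 299 ± 108 TPM and the histone methyltransferase EHMT2 210 ± 42.9 TPM. SETDB1, the methyltransferase that TRIM28 recruits, had 21.2, 25.03 and 22.7 TPM in the females and 19.1, 25.6 and 19.0 TPM in the males. TRIM28 itself was listed at 0 in all 6 libraries, as were RBBP4, RBBP7, HDAC1 and CBX3. These genes are used by nearly every cell, so a listed 0 is no evidence that the gene was silent.

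Among members with roles in RNA handling, ribosomes, ubiquitin or SUMO, 9 of 12 listed genes met the minimum, with a median of 37.4 TPM. ZNF326, which couples transcript elongation to splicing, had 41.5, 55.1 and 45.2 TPM in the females and 61.2, 38.4 and 56.97 TPM in the males. ZNF598, the ubiquitin ligase that marks collided ribosomes, had 37.2, 40.1 and 63.1 TPM in the females and 26.9, 50.7 and 31.8 TPM in the males. The libraries of males 1 and 5 were the 2 highest for ZNF326 and the 2 lowest for ZNF598. ZNF346, a binder of double-stranded RNA, varied less, from 33.3 to 41.9 TPM.

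Of the 19 listed genes of neural development or neuropsychiatric risk, 9 were members. ZNF385B and ZNF385D, relatives of ZNF385A, averaged 55.7 and 41.5 TPM. ZNF365, whose protein binds the psychiatric risk factor DISC1, had 38.7, 45.9 and 22.7 TPM in the females and 40.8, 39.8 and 49.2 TPM in the males, with female 4 the only library under 30 TPM. ZNF335, a microcephaly gene, averaged 29.6 TPM and was lowest in male 1 at 16.9 TPM. ZNF746, a repressor that parkin degrades, averaged 11.4 ± 1.55 TPM (SD, n = 6). The schizophrenia-associated ZNF804A missed the minimum, with 3.76 to 12.4 TPM.

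Promoter and enhancer binders contributed 10 of 13 listed genes. ZNF219 was the highest with a mean of 45.0 TPM, followed by ZNF335 and by ZNF76, a relative of ZNF143, at 28.9 TPM, and ZNF24, which is needed for myelination, averaged 21.1 ± 4.07 TPM (SD, n = 6). Of the partners of chromatin complexes, 6 of 12 listed genes were members. After ZNF512B these were ZNF687 at 19.2 TPM, ZNF827 at 12.6, ZNF518B at 10.5, ZNF608 at 9.65 and ZNF518A at 6.88 TPM on average. All list counts cover plain names only. ZNF644, ZNF609, ZNF740 and, among the RNA genes, ZNF706 missed the minimum, but loci with the "li" suffix met it. These were ZNF644li2 at 27.6, ZNF609li1 at 10.3, ZNF740li1 at 23.9 and ZNF706li1 at 114 TPM on average. The list counts are thus no measure of how many of these factors were expressed.

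Members were found on autosomes in 101 cases and on unplaced contigs in 5. None of the 6 ZNF genes with a plain name on the X chromosome was a member. The highest of them by mean, ZNF41, ranged from 2.87 to 5.69 TPM, and ZNF280C reached 5.88 TPM in male 5. ZNF639 and ZNF740 were at 0 there, but ZNF639li1 on contig5184 averaged 79.3 TPM and ZNF740li1 on chromosome 6 averaged 23.9 TPM. ZNF75Dli1 on the X chromosome had 7.08 to 13.3 TPM, so the lack of X-linked members holds for plain names only. Chromosome 27 carried 19 members of its 43 ZNF genes, chromosome 2 carried 14 of 23, chromosome 21 carried 9 of 22 and chromosome 5 carried 8 of 11. Chromosome 27 thus held 17.9% of the members, but 4.41% of all loci that met the minimum.

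**Figure D2:**
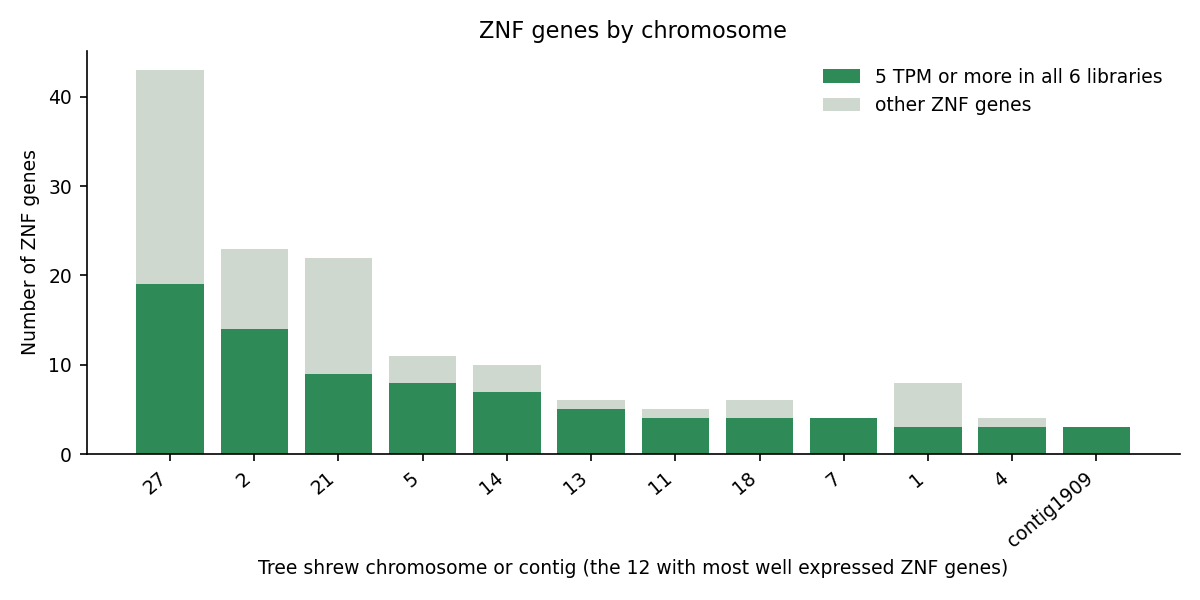
Number of ZNF genes on the 12 chromosomes or contigs with most members, split into members (dark) and other ZNF genes (light). Chromosome 27 has most ZNF genes, 43, of which 19 are members, whereas all 4 ZNF genes of chromosome 7 are members.

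A cluster was taken as at least 3 ZNF-named genes, expressed or not, with starts no more than 500 kb apart. There were 22 clusters, 18 of them with a member. Clusters held 50 of the 106 members (47.2%) and 44 of the 105 other ZNF genes (41.9%). Clustered members had a median of 15.7 TPM against 22.5 TPM outside clusters. Of the KRAB members 75.5% were in clusters, against 16.7% of the members with neither domain.

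The largest cluster spanned chromosome 27 from 15471430 to 17350126, with 19 ZNF-named genes and 9 members, all of them KRAB genes. ZNF667 was its highest member at 52.5 TPM, followed by ZNF416 at 41.5, ZNF154 at 26.9, ZNF805 at 21.9, ZNF446 at 14.9, ZNF549 at 11.6, ZNF135 at 10.9, ZNF471 at 10.9 and ZNF470 at 7.07 TPM. ZNF135 was the most variable of all 106 members, with 19.8, 6.32 and 5.50 TPM in the females and 10.7, 5.96 and 17.4 TPM in the males. Female 1 and male 5 were its high libraries, and females 3 and 4 and male 4 lay near the minimum.

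The second cluster by number of members, on chromosome 5 from 38340358 to 38884618, had 9 ZNF-named genes and 6 members. ZNF777 had 36.2, 37.6 and 32.1 TPM in the females and 22.0, 32.3 and 23.3 TPM in the males. ZNF746 had 13.0, 13.0 and 11.2 TPM in the females and 9.44, 12.2 and 9.82 TPM in the males. In both genes males 1 and 5 were the lowest libraries, and male 4 lay within the range of the females.

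ZNF467, a regulator of fat and bone cell fate in the same cluster, had 28.2, 21.1 and 17.3 TPM in the females and 9.35, 24.6 and 7.07 TPM in the males, again with males 1 and 5 lowest. ZNF786, at the other end of the cluster, was the steadiest of all members, with 9.28 to 10.1 TPM over the 6 libraries. ZNF282 averaged 24.8 TPM and ZNF398 averaged 12.3 TPM. ZNF777, ZNF746, ZNF282 and ZNF467 correlated with one another over the libraries, with r from 0.853 (ZNF777 and ZNF282) to 0.978 (ZNF777 and ZNF746), whereas the 15 pairs of the cluster had a median r of 0.091.

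The third cluster, on chromosome 2 from 80875620 to 81193279, had 4 members. A cluster on chromosome 13 had as many, but fewer ZNF-named genes (4 against 6). In the cluster on chromosome 2 the members were ZNF213 at 59.0 TPM, ZNF205 at 37.1, ZNF597 at 13.0 and ZNF263 at 12.9 TPM. All 6 pairs were positive, with r from 0.20 to 0.65. All 4 ZNF genes of a cluster at the start of chromosome 13 were members, and their levels ran from ZNF7 at 10.04 and ZNF16 at 14.6 TPM through ZNF251 at 42.2 TPM to ZNF34 at 377 TPM. The median r of that cluster was -0.030.

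The spread of the members over libraries was like that of other genes. The coefficient of variation had a median of 22.4% (20.9% for named genes at the same minimum) and ran from 2.85% for ZNF786 to 57.2% for ZNF135. After ZNF786 the steadiest were ZNF251 at 6.94%, ZNF23 at 8.15%, ZNF346 at 8.94% and ZNF764 at 9.50%. The most variable after ZNF135 were ZNF467 at 46.7%, ZNF461 at 41.4%, ZNF638 at 40.1% and ZNF276 at 39.2%. A range of more than 2-fold over the libraries was seen in 37 members (34.9%) and in 32.7% of the named genes.

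Co-variation was described by Pearson's r of log2(TPM + 1) over the 6 libraries, which all pairs share. The 5565 pairs of members had a median r of 0.066, and the pairs of all 9496 loci at the same minimum had a median of 0.061. Correlations above 0.8 made up 7.17% of member pairs and 6.32% of all pairs, and correlations below -0.8 made up 3.85% and 3.99%. The median of the members turned to -0.023 after median-ratio scaling of the libraries and to -0.017 after quantile normalization, so its sign depended on the scaling. The 80 pairs within a cluster had a median r of 0.20 and the 5485 other pairs a median of 0.063.

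**Figure D3:**
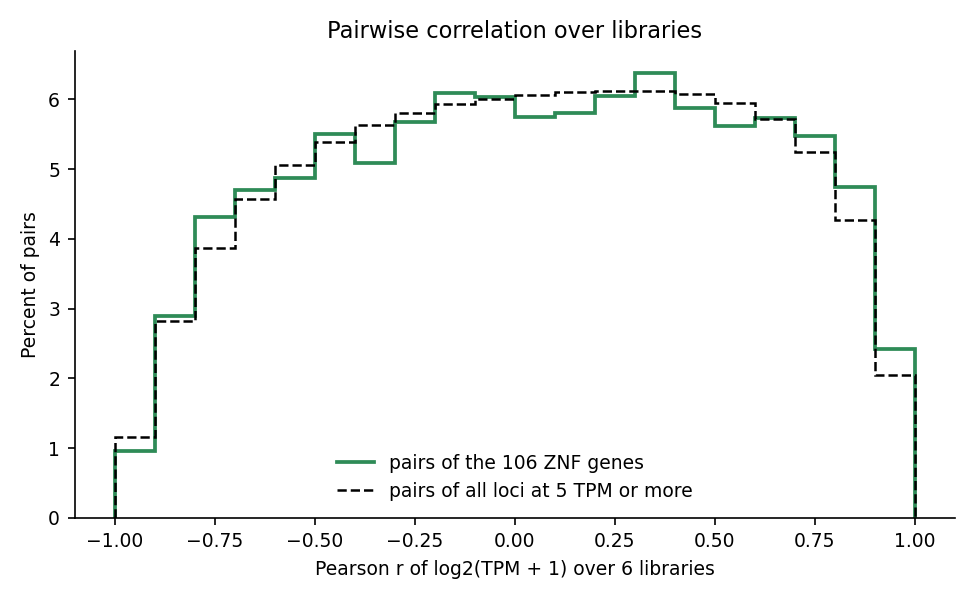
Distribution of Pearson's r over the 6 libraries for pairs of members (solid green) and for pairs of all loci at 5 TPM or more in every library (dashed black), as the percent of pairs in each step of r. The curves run close together, with medians of 0.066 and 0.061.

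The pairs with the highest and lowest r were chosen after their values were seen. ZNF317 and ZNF608 reached 0.993, ZNF365 and ZNF148 reached 0.986, and ZNF777 and ZNF461 reached -0.997. ZNF461 had 6.71, 6.27 and 8.52 TPM in the females and 15.8, 7.67 and 14.1 TPM in the males, so males 1 and 5 were its high libraries and the low libraries of ZNF777. ZNF581, ZNF385A and ZNF512B, all among the 10 highest members, varied together from male 1, the lowest, to male 4, the highest, with r of 0.979 for ZNF385A with either of the others.

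A principal component analysis of the members gave a first component with 44.9% of the variance (34.7% for all loci at the minimum). It placed male 1 (weight 0.58) and male 5 (0.50) opposite female 4 (-0.44) and male 4 (-0.44), with female 1 at -0.17 and female 3 at -0.02. Males 1 and 5 thus lay on one side and male 4 and females 1 and 4 on the other, with female 3 near the middle. The first component of all loci at the minimum also set males 5 (0.55) and 1 (0.29) opposite female 4 (-0.72) and male 4 (-0.20). Female 1 was at -0.11 and female 3 at 0.20, so the layout was not particular to the members. Males 1 and 5 were also the libraries with most TPM in loci without a strand. Their microglia marker sums were the lowest (173 and 148 TPM, against 203 to 278 TPM), although the microglia marker P2RY12 was highest in them. Their choroid plexus sums were the highest (7.37 and 9.98 TPM, against 1.48 to 6.47 TPM). The other marker sums did not set both males apart. The part of these in the first component of the members was not tested.

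Members at the low end of that component, named after their scores were seen, were ZNF467, ZNF444, ZNF579, ZNF593, ZNF219 and ZNF276. ZNF219 had 53.5, 59.7 and 46.3 TPM in the females and 20.4, 53.7 and 36.2 TPM in the males. ZNF593, a ribosome assembly factor, had 28.6, 19.98 and 29.6 TPM in the females and 15.9, 30.6 and 14.4 TPM in the males. In both, males 1 and 5 were below male 4 and below all females.

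At the other end were ZNF16, ZNF461, ZNF135, ZNF638, ZNF608 and ZNF165. ZNF638, which takes part in silencing retroviral DNA, had 24.4, 23.6 and 27.5 TPM in the females and 50.3, 16.8 and 28.7 TPM in the males. Male 1 stood above the other 5 libraries, and male 4 was the lowest. ZNF165 had 36.7, 49.5 and 10.8 TPM in the females and 35.0, 35.4 and 42.4 TPM in the males, so that female 4 alone was low.

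**Figure D4:**
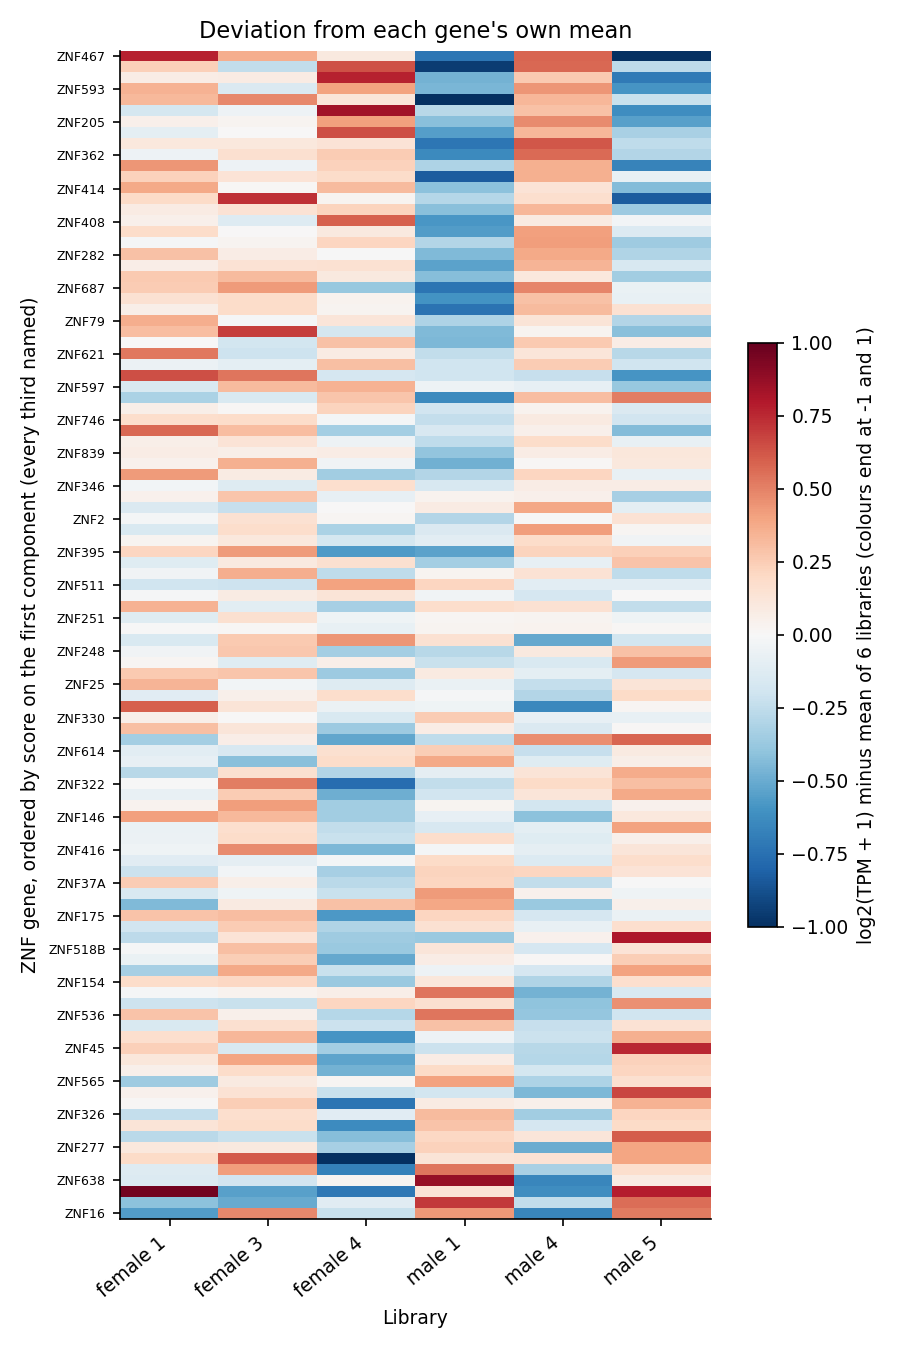
Deviation of each member from its own mean over the 6 libraries, in log2(TPM + 1), with red for above and blue for below the mean and members ordered by their score on the first component from ZNF467 at the top to ZNF16 at the bottom. Males 1 and 5 are blue and male 4 red at the top, and the colours turn over towards the bottom.

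Single libraries were often the extreme ones. Female 4 was the lowest library for 37 members and male 1 for 29, but females 1 and 3 for 4 each, and these shares (34.9%, 27.4%, 3.77% and 3.77%) were near those of all loci at the minimum (29.8%, 25.5%, 4.98% and 6.82%). The highest library was female 3 for 23 members, male 5 for 21, male 4 for 18, male 1 for 16, female 1 for 15 and female 4 for 13. Over all loci at the minimum these libraries were the highest in 24.3%, 18.8%, 13.4%, 15.6%, 10.7% and 17.2%, beside 21.7%, 19.8%, 17.0%, 15.1%, 14.2% and 12.3% of the members.

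The comparison of the sexes asked whether levels in the PFC differed between female and male tree shrews. No member passed the limma test at an adjusted p of 0.1 (0 of 106), where 0.0143% of autosomal genes, 0.134% of X-linked genes and 0.0165% of all 30238 genes tested were called, as were 0.0316% of the loci that met the same minimum. The lowest adjusted p among the members in limma was 0.770. The study tested these animals with DESeq2 on read counts, also at an adjusted p of 0.1. It called many more genes on the autosomes and the X chromosome than limma on TPM did. The lack of calls here is thus no evidence of equal levels. At an unadjusted limma p under 0.05, 1 member was higher in males and 0 were higher in females, against 2.58% and 2.45% of all genes tested and 1.25% and 3.43% of the loci at the minimum. Since members had to reach 5 TPM in every library, a gene expressed in 1 sex only could not be a member.

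The difference, female minus male on the log2(TPM + 1) scale, was positive for 58 members (54.7%), and it was positive for 57.5% of loci at the same minimum and 46.9% of all genes tested. Its median was 0.037 for the members and 0.049 for those loci. The median of the members turned to -0.013 under quantile normalization, and leaving out 1 library moved it between 0.003 (without male 4) and 0.12 (without female 4), so its sign is not settled. For 97 members the estimate was within 0.5 of 0, and for 79 the whole 95% interval was within 1 of 0, a 2-fold change. The intervals of the others extended as far as 1.79 upwards and -1.53 downwards, so differences up to that size lay within the error of those genes.

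**Figure D5:**
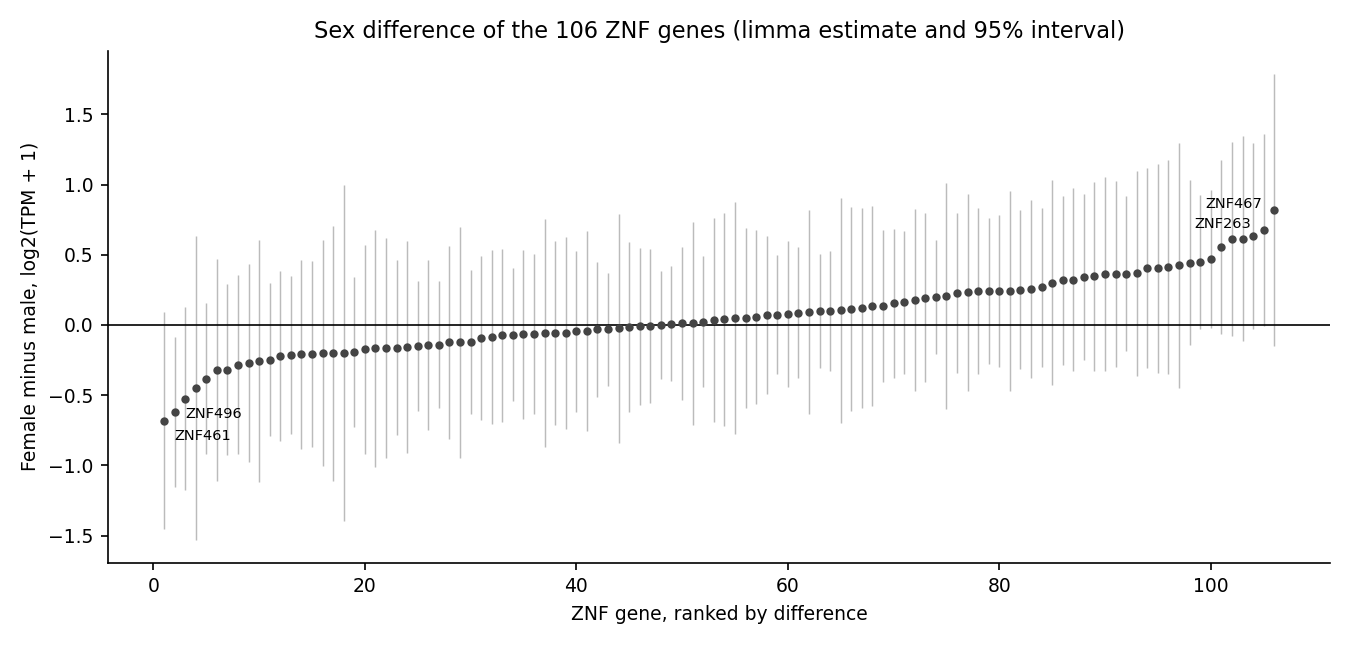
Female minus male difference of each member on the log2(TPM + 1) scale (points, limma estimate) with its 95% interval (grey bars), ranked from ZNF461 at the left to ZNF467 at the right. All intervals but that of ZNF496 include 0, before any adjustment for the number of genes.

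ZNF496, a KRAB and SCAN protein that binds the methyltransferase NSD1, was the member with the lowest unadjusted p. It had 13.1, 13.5 and 11.6 TPM in the females and 18.5, 17.4 and 24.8 TPM in the males. Every male was above every female, and the difference was -0.62 ± 0.23 (SE) on the log2 scale (limma, adjusted p = 0.929). ZNF461 had a difference of -0.68 ± 0.34, but male 4 lay among the females. ZNF827, which recruits NuRD to telomeres, had 10.5, 12.2 and 9.69 TPM in the females and 14.7, 14.6 and 13.7 TPM in the males, a difference of -0.38 ± 0.24 that did not pass the limma test (adjusted p = 0.929). ZNF697 and ZNF365 had differences of -0.53 and -0.32, and the sexes overlapped in both. Without female 4 the difference of ZNF365 was -0.030, and with male 4 as the only male that of ZNF461 was -0.097.

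With the opposite sign, ZNF263 had 19.7, 18.2 and 10.8 TPM in the females and 10.5, 10.3 and 7.79 TPM in the males. Its groups did not overlap, but female 4 lay within 0.3 TPM of male 1, and the difference was 0.68 ± 0.30 (SE, limma, adjusted p = 0.929). ZNF48 had 50.6, 74.0 and 45.2 TPM in the females and 36.2, 49.8 and 24.4 TPM in the males, and male 4 lay within the females. ZNF414, ZNF777 and the transcription repressor gene ZNF703 had differences of 0.47, 0.45 and 0.55, again with male 4 inside the range of the females and males 1 and 5 below it. With male 4 as the only male these differences were 0.098, 0.12 and 0.25, and that of ZNF48 was 0.15.

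Groups without overlap were seen in 1 member with all females higher, ZNF263, and in 4 with all males higher, ZNF496, ZNF827, ZNF786 and ZNF829, the last named after its values were seen. Over all genes tested, 4.92% had all females and 4.93% all males higher, and over the loci at the minimum 5.98% and 2.77%. For ZNF786 the separation was small, with 9.28 to 9.87 TPM in the females and 9.88 to 10.1 TPM in the males.

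The count at an unadjusted p depended on male 4. Without that library the unadjusted limma p was under 0.05 for 14 members with the higher level in females and for 2 with the higher level in males. Of all genes tested 5.05% and 4.38% then passed in these directions, and of the loci at the minimum 9.52% passed in favour of females. The 14 included ZNF467, ZNF414, ZNF219, ZNF579, ZNF48, ZNF385A and ZNF777, and their lowest limma adjusted p was 0.320. Without female 4 there were 3 members higher in females, where 2.44% of all genes tested and 3.88% of loci at the minimum passed in that direction. Without male 1 there were 2 higher in males, where 4.74% and 1.89% passed.

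The summed level of the members was 3992, 3938 and 3731 TPM in the females and 3239, 3843 and 3600 TPM in the males. The group means were 3887 ± 138 and 3561 ± 304 TPM (SD, n = 3 each), and male 4 was above female 4, so the groups overlapped. The difference of 326 TPM between the means was 165 TPM without ZNF581 and ZNF34 and 44.3 TPM when male 4 alone stood for the males. Leaving out 1 library gave 166 TPM (without male 1) to 467 TPM (without male 4). The summed oligodendrocyte markers, led by MAG, and the summed blood markers were lower in all 3 males, although MOG and MBP in male 1 lay above female 4, and their part in the differences of the members was not tested.

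None of the 5 gene lists held a gene past the adjusted threshold in either direction. Of the co-repressor pathway 16 genes were tested, of the promoter and enhancer binders 12, of the partners of chromatin complexes 9, of the RNA, ribosome, ubiquitin and SUMO genes 10, and of the neural genes 18. None of them had an unadjusted limma p under 0.05 either. Over all genes tested 0.0165% were called, and 2.45% (higher in females) and 2.58% (higher in males) had such an unadjusted p. The median differences of the lists, in that order, were -0.005, 0.12, -0.25, -0.076 and 0.020 on the log2 scale, beside -0.029 over all genes tested.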

How the data were processed

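Poly(A) RNA, enriched from total RNA of the PFC of 6 animals, was sequenced by the authors, 1 library each. Per the labels and methods, reads were aligned with HISAT2 2.2.1 to the TS_3.0 genome and assembled with StringTie 2.2.1, and the deposited gene tables give TPM, FPKM and read coverage for each locus. The authors' TPM was the measurement used. FPKM, as deposited, served as an alternative, and the deposited coverage was not used, being no count. No file gives counts, so precision rests on the number of animals. The limma p-values set the difference of the sex means against the spread within each sex. That spread was drawn towards a trend over all genes tested. TPM of rows with the same gene identifier on the same chromosome or contig was summed, which left 95863 loci present in all libraries.

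Sex was tested with limma 3.58.1 (R 4.3.3) on log2(TPM + 1) with an intensity trend and empirical Bayes moderation, on the 30238 genes that reached 0.1 TPM in at least 3 libraries. A Benjamini-Hochberg adjustment was made within autosomes, the X chromosome and contigs, at a threshold of 0.1. A fold on this scale understates the change of low genes. As in the study's methods, the X segment 4542400 to 6144400 and chromosome 26 before 3132930 were kept apart, and no member lay there. The test was checked on simulated data with known changes. Descriptive values came from Python 3.11.15 with numpy 2.4.6 and pandas 2.3.3.

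The members and lists were chosen with earlier results of these data known. The text names the 10 members of highest mean, 5 on either side of the minimum and the 5 with the lowest limma p in each direction. It also names the 5 most and 5 least variable, list members and the members of the 3 clusters with most members. A tie for the third was settled by the number of ZNF-named genes. KRAB and SCAN classes were set by hand from knowledge of the human proteins, after the levels were seen. Genes were named from the tables; 80 members matched a RefSeq symbol, used for neighbours only, and no coordinates were taken from that assembly. Alternatives were the pseudocount, filter, scaling, unit, thresholds, cluster definition, an animal-number block and leaving out each animal. Leaving out males 1 and 5, members with an overlapping named gene, or the 2 highest members was chosen after seeing the data. Libraries were compared exactly, as deposited, and no pair shared the same TPM at more than 2 loci above 0.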

Additional observations from a re-analysis of the deposited data

How the results depend on the processing

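The count of members called at an adjusted p of 0.1 stayed 0 in all 18 alternatives. The count higher in females at an unadjusted p under 0.05, 0 as reported, was 5 with FPKM (2.92% of all genes then tested were higher in females) and 1 with a filter at 1 TPM, no filter, a pseudocount of 0.1 or 0.01, median-ratio scaling, quantile normalization or without males 1 and 5, where the lone male 4 is assumed to vary like the females. Leaving out 1 library gave 0 to 14, the 14 without male 4. The count higher in males, 1 as reported, was 0 to 2. With the animal number as a replicate block it was 0. Numbers 1 and 4 occur in both sexes, but nothing pairs the animals, and their deviations over 30238 genes had r of -0.005 and 0.038, so the block is no pairing. The cause of these changes was not tested.

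All 10 genes named for their difference kept its sign in 17 alternatives each, but the size of some fell close to 0, as for ZNF365 without female 4 (-0.030). A minimum of 10 TPM left 62 members, and clusters of at least 5 genes held 28 members, since both ask for more. The median r was -0.023 with median-ratio scaling and -0.017 with quantile normalization, and the difference in summed TPM was 44.3 without males 1 and 5. The SE of the difference had a median of 0.28 (log2) over the members, which limits what 3 animals per sex can show.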

Other observations

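The ZNF copies with the "li" suffix formed a similar group. Of 59 such copies 24 met the minimum of 5 TPM in all libraries, with a median mean of 24.8 TPM, and 0 of them were called by limma at an adjusted p of 0.1 or had an unadjusted p under 0.05. Of all loci at the minimum 0.0316% were called, and 3.43% (higher in females) and 1.25% (higher in males) had such an unadjusted p. ZNF706li1 averaged 114 TPM, ZNF184li1 92.9, ZNF639li1 79.3 and ZNF32li1 70.2 TPM. The loci of the plain names ZNF706 and ZNF639 were listed at 0 in every library, and ZNF184 and ZNF32 averaged 0.170 and 0.079 TPM. The silent loci were short: ZNF706 ran from 116180319 to 116182987 and ZNF639 from 74456956 to 74457914. ZNF706li1 spanned 44502 bp and ZNF639li1 76437 bp. The suffix therefore does not settle which locus of a name is the gene and which the copy. For 4 of the 24 copies the gene of the plain name was itself a member: ZNF37A, ZNF844, ZNF20 and ZNF416.

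Other zinc finger families also had genes at the minimum, among them 16 of 32 ZBTB genes, 5 of 10 ZSCAN genes, 2 of 4 ZKSCAN genes, 5 of 13 KLF genes, 4 of 14 ZFP genes and 3 of 11 SP genes. None of the family members at the minimum was called by limma at an adjusted p of 0.1, and 1 ZKSCAN gene of the 35 had an unadjusted p under 0.05, where 3.43% (higher in females) and 1.25% (higher in males) of all loci at the minimum passed.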
